A study of Saccharomyces cerevisiae with 16 samples.

Results

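This account covers 10 genes of *Saccharomyces cerevisiae* that are known to be induced by mating pheromone and to act in cell adhesion, cell fusion and nuclear fusion during mating: *KAR4*, *AGA1*, *FIG1*, *FIG2*, *PRM1*, *PRM2*, *PRM3*, *PRM6*, *FUS1* and *FUS2*. They were chosen by name, with earlier results of these data known, so the counts below describe these genes and do not test an independent list. Each matched 1 probe set by its annotated gene, so the 10 members are 10 of the 5498 probe sets, for 5449 genes, that were tested. In the S288c wild type all 10 stood at a higher level than on any of the 12 arrays of the strain Σ1278b. The same held for 13.6% of all tested probe sets, and for 29.4% with each array centred on its median. Strain and set of arrays cannot be told apart, and the S288c wild-type arrays carried transcripts of both mating types. In S288c carrying *MSS11* on a multicopy plasmid all 10 were lower than in the S288c wild type, by 2.49-fold (*AGA1*) to 19.1-fold (*FIG1*) in the mean of 2 arrays. Both arrays lay below both wild-type arrays for all 10, as for 25.7% of all tested probe sets. The test of this difference depended on how the spread between the arrays was estimated. In Σ1278b no member passed the test with *MSS11* in excess or deleted.

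Yeast cells of the mating types a and α each secrete a peptide pheromone and carry a surface receptor for the pheromone of the other type. Binding of the pheromone frees the βγ part of a G protein, which starts a cascade of kinases that ends at the transcription factor Ste12, and Ste12 switches on genes for arrest of the cell cycle, for the mating projection and for fusion. In a culture of a single mating type without added pheromone most of these genes are known to be transcribed at a low level. Mss11, the factor that the study varied, is a regulator of flocculation and filamentous growth.

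The values come from Affymetrix Yeast Genome 2.0 arrays, with 2 arrays for each condition, and all levels below are log2 of the deposited intensity. S288c is represented by BY4742, labelled *MATα his3Δ1 leu2Δ0 lys2Δ0* with a *ura3* deletion whose allele number runs on from array to array, and it carried the empty vector YEpLac195 (wild type) or YEpLac195-*MSS11* (2μ-*MSS11*). Σ1278b, labelled *MATα* and *ura3-52* with *his3*, *leu2* and *trp1* each disrupted by *hisG*, was measured with the empty vector (wild type), with YEpLac195-*MSS11* (2μ-*MSS11*) and with *MSS11* deleted (*mss11*). A second set of Σ1278b arrays holds the empty-vector strain again (wild type b) and strains titled *FLO8* overexpressed and *flo8* deleted. The plasmid labels of these last strains contradict their titles: the arrays titled overexpressed carry the label of the empty vector and those titled deleted the label of YEpLac195-*FLO8*, and they are named by title here. No array is labelled as treated with pheromone or as mixed with another strain. According to the labels all cultures grew in synthetic medium with 2% glucose and were harvested on entry into stationary phase, whereas the methods describe the mid-exponential phase. Each condition rests on a transformed strain, and the labels call the 2 arrays biological replicates.

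Several facts about the arrays bear on every value below. The S288c arrays, the first 6 Σ1278b arrays and the second 6 differ in their lowest intensity and in the median of the tested probe sets, which lay at 10.4, 10.2 to 10.3 and 11.5 to 11.6, so strain and set of arrays cannot be told apart. *MSS11* stood at 8.87 on both S288c wild-type arrays and at 13.27 and 12.37 with the plasmid, and at 3.01 and 3.03 in *mss11* against 7.5 and 8.34 in its wild type, as the labels state. *FLO8* stood at 15.71 and 12.90 on the arrays titled overexpressed, and at 11.06 and 11.16 on those titled deleted against 11.59 and 11.63 in wild type b, so the title of a deletion is not borne out by this probe set. The 2 arrays of S288c 2μ-*MSS11* stood apart from each other: 29.3% of tested probe sets differed between them by more than 1 on the log2 scale, against 0.0728% to 3.22% in the other 7 conditions. Results on this condition are therefore given for each array.

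The markers of mating type did not match the labels of S288c. All cultures are labelled *MATα*, although the strain list of the study gives the Σ1278b parent as *MATa*. The 5 α-specific genes were expressed on all 16 arrays, at 10.68 or above, and *MFα1*, which encodes the α-factor pheromone, stood between 14.9 and 15.6. The 7 a-specific genes, which α cells are known to repress, were at or near background in Σ1278b for *MFA1*, *MFA2* and *ASG7*, and *STE2*, the receptor for α-factor, stood between 4.79 and 6.56 there. In the S288c wild type the same genes were high: *MFA1* and *MFA2*, the a-factor genes, stood at 13.20 and 13.31 and at 10.94 and 11.11, *STE2* at 13.56 and 13.49, *BAR1*, a protease that degrades α-factor, at 10.52 and 10.57, and *AGA2*, the binding subunit of a-agglutinin, at 12.27 and 12.62. The S288c wild-type arrays thus carried the transcripts of both mating types. All 7 a-specific genes were called higher than in the Σ1278b wild type, with differences of 3.06 to 10.51, where 31.8% of all tested probe sets were. In RNA from a whole culture, a smaller number of cells that express a gene and less RNA of it per cell cannot be told apart.

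In the comparison of the S288c wild type with the Σ1278b wild type, all 10 members were called higher, by 4.04 (*FUS1*) to 9.54 (*PRM6*) on the log2 scale, with a median of 6.53 against 0.02 over all tested probe sets. Of all tested probe sets 31.8% were called higher and 28.1% lower in this comparison, so a call alone is common between these strains, and it is the size of the differences that is given below. All 10 were also called higher against each of the other 5 Σ1278b conditions, where the share of all probe sets called higher was 34.2% for 2μ-*MSS11*, 33.7% for *mss11*, 11.1% for wild type b, 10.8% for the arrays titled *FLO8* overexpressed and 11.0% for those titled *flo8* deleted. These 6 comparisons share the S288c wild-type arrays. Both S288c wild-type arrays lay above all 12 Σ1278b arrays for each of the 10 members, as they did for 13.6% of all tested probe sets. With each array centred on its median the count of members was again 10, against 29.4% of all probe sets.

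**Figure D1:**
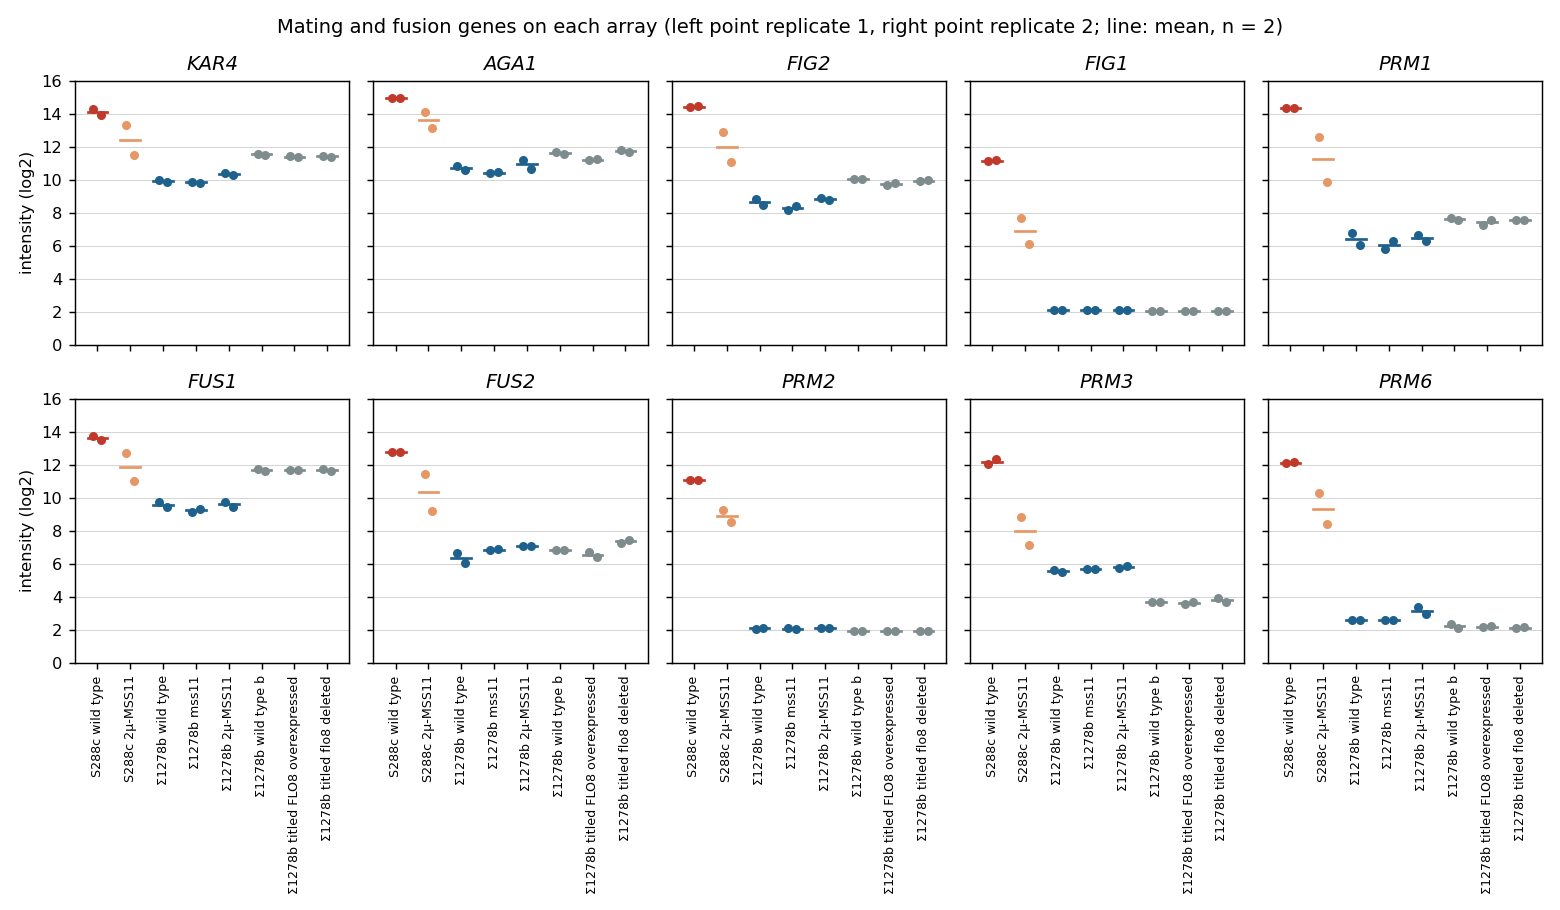
Intensity (log2) of the 10 genes on each of the 16 arrays, in 8 conditions of 2 arrays. Points are arrays and lines are means of 2; the S288c wild type lies above all Σ1278b arrays in every panel, and the 2 arrays of S288c 2μ-*MSS11* lie below it and above all Σ1278b arrays except for replicate 2 of *FUS1* and *KAR4*, and replicate 2 is lower than replicate 1.

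Kar4 is a transcription factor that acts with Ste12 on genes of nuclear fusion. *KAR4* stood at 14.28 and 13.93 in the S288c wild type, at 13.33 and 11.52 in S288c 2μ-*MSS11*, and between 9.84 and 11.57, with a median of 10.92, over the 12 Σ1278b arrays. The wild-type S288c arrays were the highest, and replicate 2 of S288c 2μ-*MSS11* fell within the deposited range of Σ1278b. The highest Σ1278b array belongs to the second set, whose median is shifted upward. The difference from the Σ1278b wild type was 4.17 ± 0.43 (SE, 18.0-fold, adjusted p = 4.03e-05), and it was smaller, 2.56 ± 0.43, against wild type b. The difference of S288c 2μ-*MSS11* from its wild type was -1.68 ± 0.43 (3.21-fold lower, adjusted p = 0.0285).

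Among the surface proteins, Aga1 anchors the a-agglutinin that binds mating partners, and Fig2 is a cell wall adhesin of the mating projection. *AGA1* stood at 14.96 and 14.95 in the S288c wild type, at 14.13 and 13.15 with 2μ-*MSS11*, and between 10.41 and 11.83, with a median of 11.21, in Σ1278b. It was the member with the smallest difference between the S288c conditions, -1.32 ± 0.27 (2.49-fold, adjusted p = 0.0127), and both of its 2μ-*MSS11* arrays stayed above every Σ1278b array. Its difference between the wild types was 4.22 ± 0.27 (18.6-fold, adjusted p = 1.95e-06). *FIG2* stood at 14.40 and 14.46, at 12.93 and 11.08, and between 8.16 and 10.03, with a median of 9.29, in the same order of groups. The 3 groups of *FIG2* did not overlap. It was higher in the S288c than in the Σ1278b wild type by 5.77 ± 0.44 (54.6-fold, adjusted p = 6.21e-06) and lower with 2μ-*MSS11* in S288c (5.38-fold, log2 difference -2.43 ± 0.44, adjusted p = 0.0075).

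Fig1 is a membrane protein needed for calcium uptake during mating, and Prm6 is a membrane protein linked to potassium uptake in pheromone-treated cells. *FIG1* stood at 11.16 and 11.18 in the S288c wild type, at 7.70 and 6.14 with 2μ-*MSS11*, and between 2.05 and 2.13 on all 12 Σ1278b arrays. *PRM6* stood at 12.10 and 12.19, at 10.27 and 8.41, and between 2.08 and 3.38, with a median of 2.45. The groups did not overlap for either gene. The signal of *FIG1* on every Σ1278b array lay under that of the deleted *MSS11* in *mss11* (mean 3.02), and that of *PRM6* did in 5 of the 6 Σ1278b conditions, 2μ-*MSS11* being the exception, so their ratios to Σ1278b depend on the background left in the values. With that limit, *FIG1* was 534-fold higher in the S288c than in the Σ1278b wild type (log2 difference 9.06 ± 0.36, adjusted p = 7.33e-08) and *PRM6* 746-fold (9.54 ± 0.45, adjusted p = 2.25e-07). Within S288c the difference of 2μ-*MSS11* from the wild type was -4.26 ± 0.36 for *FIG1* (19.1-fold, adjusted p = 0.000105), the largest among the members, and -2.80 ± 0.45 for *PRM6* (adjusted p = 0.00428).

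Prm1, Fus1 and Fus2 act in cell fusion: Prm1 in the fusion of the plasma membranes, Fus1 at the tip of the projection, and Fus2 in the cytoplasm beneath it. *PRM1* stood at 14.39 on both S288c wild-type arrays, at 12.59 and 9.90 with 2μ-*MSS11*, and between 5.81 and 7.70, with a median of 7.03, in Σ1278b. *FUS2* stood at 12.79 and 12.80, at 11.46 and 9.22, and between 6.06 and 7.46, with a median of 6.83. For both genes the groups did not overlap, and the gap between the 2μ-*MSS11* arrays, 2.69 for *PRM1* and 2.24 for *FUS2*, was the widest among the members. The difference of the wild types was 7.98 ± 0.66 for *PRM1* (252-fold, adjusted p = 9.96e-06) and 6.44 ± 0.54 for *FUS2* (87.0-fold, adjusted p = 1.10e-05). Within S288c it was -3.15 ± 0.66 for *PRM1* (8.85-fold, adjusted p = 0.0133) and -2.45 ± 0.54 for *FUS2* (5.48-fold, adjusted p = 0.0165).

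*FUS1* had a less uniform pattern in Σ1278b. It stood at 13.77 and 13.52 in the S288c wild type, at 12.72 and 11.02 with 2μ-*MSS11*, between 9.17 and 9.78 on the first 6 Σ1278b arrays and between 11.63 and 11.77 on the second 6. As deposited, replicate 2 of S288c 2μ-*MSS11* therefore lay under all arrays of the second set. The median of the tested probe sets was 10.37 on that replicate and 11.53 to 11.56 in the second set. This order therefore depends on the shift between the sets. The difference of the S288c wild type was 4.04 ± 0.42 from the Σ1278b wild type (16.5-fold, adjusted p = 4.04e-05) and 1.95 ± 0.42 from wild type b (adjusted p = 0.0015). The difference of S288c 2μ-*MSS11* from its wild type was -1.77 ± 0.42 (3.41-fold lower, adjusted p = 0.0214).

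Prm2 and Prm3 are membrane proteins of nuclear fusion, Prm3 in the nuclear envelope. *PRM2* stood at 11.06 and 11.10 in the S288c wild type, at 9.25 and 8.52 with 2μ-*MSS11*, and between 1.94 and 2.10 in Σ1278b. *PRM3* stood at 12.05 and 12.35, at 8.85 and 7.17, between 5.52 and 5.87 on the first 6 Σ1278b arrays and between 3.55 and 3.95 on the second 6. For both genes all 4 S288c arrays lay above all 12 Σ1278b arrays. *PRM2* was at background in the 3 conditions of the second set, that is, at or under the 75th percentile of probe sets for another organism on each array. Taken against that percentile, the S288c wild type was 546-fold higher than wild type b. This size is not a firm lower limit, since it depends on the background chosen. The deleted *MSS11* lay above that percentile, at a mean of 3.02, and the sets of arrays differ. In the first set its signal lay close to that percentile and, as in the second, under that of the deleted *MSS11*, so the size of its difference from Σ1278b depends on the background left in the values. With that limit, the difference from the Σ1278b wild type was 9.0 ± 0.18 for *PRM2* (adjusted p = 3.18e-10), and it was 6.61 ± 0.40 for *PRM3* (97.9-fold, adjusted p = 1.44e-06). Within S288c it was -2.20 ± 0.18 for *PRM2* (4.58-fold, adjusted p = 8.14e-05) and -4.19 ± 0.40 for *PRM3* (18.2-fold, adjusted p = 0.000211).

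**Figure D2:**
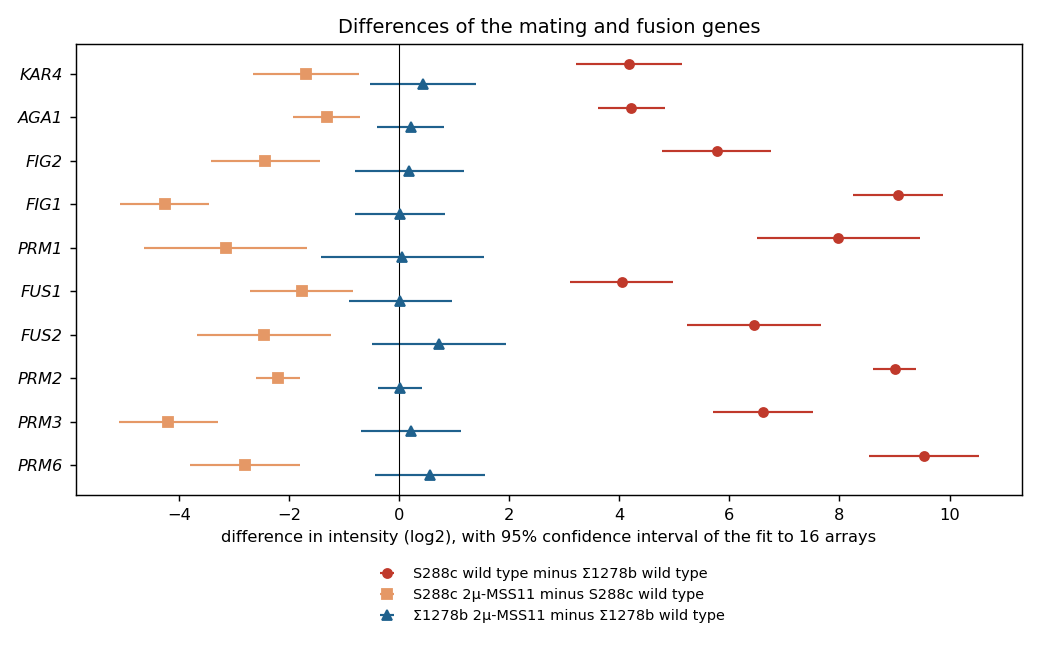
Differences of the 10 genes in log2 intensity with 95% confidence intervals, for the S288c against the Σ1278b wild type (circles) and for 2μ-*MSS11* against the wild type in S288c (squares) and in Σ1278b (triangles). The circles lie between 4.04 and 9.54, the squares between -4.26 and -1.32, and the triangles between 0.01 and 0.72 with intervals that include 0.

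The order of the levels over the 3 kinds of culture was the same for most members. The S288c wild type was highest, S288c 2μ-*MSS11* came next and the Σ1278b conditions were lowest for 8 of the 10 members, for which both 2μ-*MSS11* arrays of S288c lay above all 12 Σ1278b arrays, against 5.35% of all tested probe sets. The other 2 were *FUS1* and *KAR4*, for which replicate 2 differed from the highest Σ1278b array by -0.75 and -0.06. For both, that array belongs to the second set, whose median is shifted upward, and these values are as deposited. Over the 8 condition means, each member followed the mean of the other 9 with a Pearson correlation of 0.75 (*FUS1*) to 0.99 (*FIG1*, *FUS2* and *PRM1*), a description over conditions that is set largely by the step between the strains.

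Within S288c, all 10 members were called lower with 2μ-*MSS11* by limma on all 16 arrays, where 9.6% of all tested probe sets were called lower and 7.26% higher. The median difference of the members was -2.44, against -0.01 over all tested probe sets. For all 10 members both 2μ-*MSS11* arrays lay below both wild-type arrays, as they did for 25.7% of all probe sets. The spread behind these calls was uneven: the SD of the 2 arrays was 0.52 to 1.90 in S288c 2μ-*MSS11* and 0.0025 to 0.24 in the S288c wild type, and the test shares a single SD per gene over 8 conditions. With a variance for each condition, *FIG1*, *PRM2* and *PRM3* were called (adjusted p = 0.000113, 0.0012 and 0.0169), as were 0.109% of all probe sets, and the adjusted p of the other 7 ran from 0.216 to 0.759. Fitted on the 4 S288c arrays only, no member was called, with adjusted p of 0.535 to 0.649 and an unadjusted p under 0.05 for 6 of the 10. In that fit 375 of the 5498 tested probe sets had an unadjusted p under 0.05, in either direction, and 0.0% were called lower.

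The 2 arrays of S288c 2μ-*MSS11* gave different sizes for the same direction. The difference from the mean of the S288c wild type was -0.78 (*KAR4*) to -3.48 (*FIG1*) on replicate 1, with a median of -1.65, and -1.80 (*AGA1*) to -5.04 (*FIG1*) on replicate 2, with a median of -3.46. The gap was therefore in the same direction for all 10 members. A fit without 1 of these arrays gives the same differences, and its calls assume that the lone array varies like the other conditions. Without wild-type replicate 1 the differences ran from -1.31 (*AGA1*) to -4.34 (*PRM3*). Without wild-type replicate 2 they ran from -1.32 (*AGA1*) to -4.25 (*FIG1*). Not all 10 members passed the test in either of the fits without a wild-type array.

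The a-specific genes moved with the members on these arrays. The difference from the wild-type mean was -0.23 to -2.68 for the 7 a-specific genes on replicate 1 of 2μ-*MSS11*, and -3.20 to -9.17 on replicate 2. Their summed intensity was 14.94 and 15.03 on the log2 scale in the S288c wild type, 13.69 and 8.37 in S288c 2μ-*MSS11*, and 6.89 to 8.03 in Σ1278b. On both arrays, 5 of the 7 a-specific genes and 8 of the 10 members lay above every Σ1278b array, against 5.35% of all tested probe sets. On replicate 2, *MFA1* at 6.62 and *BAR1* at 4.73 exceeded the highest Σ1278b array by 3.81 and 1.36. There *STE2*, *ASG7* and *MFA2* exceeded it by 0.26, 0.22 and 0.15, and *STE6*, the exporter of a-factor, and *AGA2* lay within the Σ1278b range. By the test on all arrays, 3 of the 7 were called lower, *ASG7*, *BAR1* and *MFA1* (adjusted p = 0.0162, 0.0316 and 0.0448), where 9.6% of all tested probe sets were. The 5 α-specific genes gave -0.13 to -3.02 on replicate 1 and -0.09 to -0.90 on replicate 2, and 2 of the 5 were called lower, *STE3* and *SAG1*. The part of the mating-type transcripts in the change of the members was not tested.

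**Figure D3:**
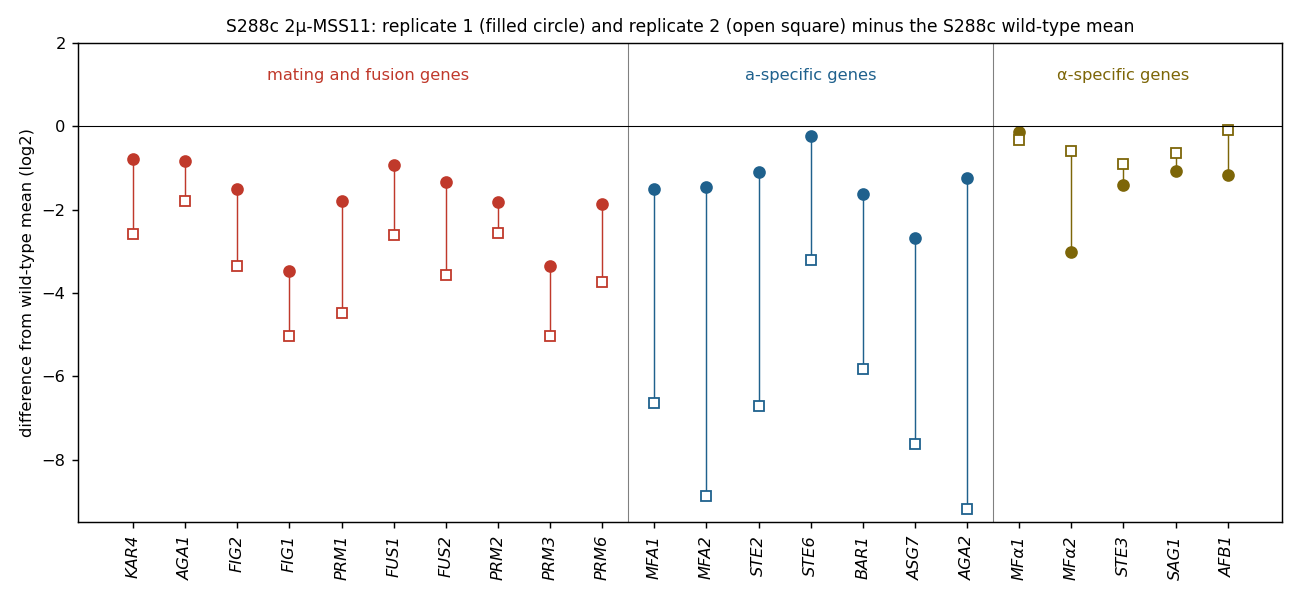
Difference in log2 intensity of each S288c 2μ-*MSS11* array from the S288c wild-type mean, for the 10 mating and fusion genes, 7 a-specific and 5 α-specific genes. Filled circles are replicate 1 and open squares replicate 2, which is the lower of the 2 for every mating and fusion gene and every a-specific gene.

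Some cell cycle genes and *HO*, named after their values were seen, also separated these 2 arrays. Between the arrays 29.3% of all tested probe sets differed by more than 1 on the log2 scale. The median of 12 cell cycle genes was 7.62 on replicate 1 and 10.34 on replicate 2, against 8.88 and 8.96 in the S288c wild type. *CLB6*, a cyclin of S phase, stood at 2.15 and 2.13 in the S288c wild type and at 2.16 on replicate 1 of 2μ-*MSS11*, but at 7.96 on replicate 2. *CLN1*, a G1 cyclin, stood at 8.26 and 8.0, then at 6.58 and 10.92, and *HO*, the endonuclease of mating-type switching, at 7.80 and 7.77, then at 6.6 and 11.33. In these genes replicate 2 lay nearer to the first Σ1278b arrays (7.96 against 8.24 to 9.08 for *CLB6*) and replicate 1 close to or below the S288c wild type. Among 12 cell cycle genes, 1 was called higher with 2μ-*MSS11* in S288c, *CLN3* (1.69, adjusted p = 0.00214), and none lower, against 7.26% and 9.6% of all tested probe sets. The part of a difference in growth state between the cultures was not tested.

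In Σ1278b, 2μ-*MSS11* left all 10 members uncalled, with differences of 0.01 to 0.72, no member at an unadjusted p under 0.05 and 5.22% of all probe sets called in either direction. The 95% confidence interval was -0.79 to 0.84 for *FIG1* and -0.50 to 1.94 for *FUS2*, the member with the largest difference. *PRM6* stood at 3.38 and 2.96 with 2μ-*MSS11* against 2.59 and 2.61 (adjusted p = 0.532). In *mss11* the members differed from the wild type by -0.38 (*FIG2*) to 0.50 (*FUS2*), and none was called where 0.127% of all probe sets were. On the arrays titled *FLO8* overexpressed the range was -0.40 (*AGA1*) to 0.01 against wild type b, and on those titled *flo8* deleted it was -0.12 (*PRM6*) to 0.53 (*FUS2*). None was called in these comparisons, where 0.0546% and 0.4% of all probe sets were, and no member had an unadjusted p under 0.05 in any of the 4 comparisons within Σ1278b. With wild type b, from the other set of arrays, as control, 5 members were called for 2μ-*MSS11* and 6 for *mss11*. The share of all probe sets called in those fits is not given here, so the counts are not read as a result on the members. Wild type b was itself called higher than the wild type for 80.0% of all probe sets and lower for 2.89%. These counts therefore include the shift between the sets of arrays.

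The Σ1278b conditions of a set could not be put in a firm order for any member by these tests. *FUS2* stood at 6.65 and 6.06 in the wild type, at 6.83 and 6.89 in *mss11* and at 7.09 and 7.06 with 2μ-*MSS11*, and the wild-type arrays differed by 0.59 among themselves. *KAR4* stood at 9.93 in the mean of the wild type, at 9.90 and 9.84 in *mss11*, and at 10.44 and 10.29 with 2μ-*MSS11*, so the 2μ-*MSS11* arrays were above the others without passing the test (0.43, adjusted p = 0.644). *AGA1* stood at 10.87 and 10.60, at 10.41 and 10.45, and at 11.21 and 10.69, where 2μ-*MSS11* and wild type overlapped. *PRM1* (6.78 and 6.05, 5.81 and 6.27, 6.65 and 6.30) and *FIG2* (8.84 and 8.48, 8.16 and 8.41, 8.92 and 8.78) also overlapped between 2μ-*MSS11* and wild type. In the second set *FUS2* stood at 6.84 and 6.83 in wild type b, at 6.72 and 6.39 on the arrays titled *FLO8* overexpressed and at 7.27 and 7.46 on those titled *flo8* deleted, with no overlap and no call.

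The response to 2μ-*MSS11* differed between the strains for 9 of the 10 members by the test of the difference itself, -1.53 (*AGA1*) to -4.41 (*PRM3*) in S288c relative to Σ1278b, where 5.64% of all probe sets were called lower. *FUS1* was the exception (-1.79 ± 0.59, adjusted p = 0.0653). This test includes the S288c 2μ-*MSS11* arrays and shares their spread. It called 3 members with a variance for each condition, where 4 of the 5498 tested probe sets were called lower. On the arrays compared only it called 0 members, and 0 of all tested probe sets. Without any one of the 2 S288c wild-type, 2 Σ1278b wild-type or 2 Σ1278b 2μ-*MSS11* arrays fewer than 9 members were called.

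The 2 empty-vector sets of Σ1278b gave different levels for 5 of the 10 members. *FUS1* was higher in wild type b than in the wild type by 2.09 ± 0.42, *KAR4* by 1.61 ± 0.43, *FIG2* by 1.37 ± 0.44 and *AGA1* by 0.90 ± 0.27, and *PRM3* was lower, at -1.93 ± 0.40 (adjusted p = 0.001, 0.0058, 0.0154, 0.0108 and 0.00138). Of all probe sets 80.0% were called higher and 2.89% lower, with a median shift of 1.21. Relative to this shift *FUS1*, *KAR4* and *FIG2* were higher by 0.88, 0.40 and 0.16, and *AGA1* and *PRM3* gave -0.31 and -3.14. With each array centred on its median no member was called higher and 4 were called lower, against 6.6% and 19.9% of all probe sets. *PRM3* was the single member called lower both as deposited and with centring. With quantile normalization no member was called, and *PRM3* gave -1.41 at an adjusted p of 0.0567.

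The signalling genes upstream of the members differed less between the strains. Of 20 genes of the pheromone pathway, from the G protein to Ste12 and its inhibitors, 12 were called higher and 2 lower in the S288c than in the Σ1278b wild type, with a median difference of 0.56. Of all tested probe sets 31.8% were called higher and 28.1% lower there. *SST2*, which deactivates the Gα subunit and is itself induced by pheromone, stood at 13.99 and 13.81 against 10.29 and 9.94, a difference of 3.78 (adjusted p = 0.000324). *TEC1*, a factor of filamentous growth, was higher by 2.44, *STE12* by 1.94 and *GPA1*, the Gα subunit, by 1.46, and *CDC42*, the GTPase of cell polarity, was lower, at -1.15. With 2μ-*MSS11* in S288c 9 of the 20 were called lower and none higher, with a median of -0.64, against 9.6% and 7.26% of all tested probe sets. *STE12* fell by 1.27 (adjusted p = 0.000416) and *FAR1*, which arrests the cell cycle, by 1.41 (adjusted p = 0.0133), and *SST2* gave -1.51 at an adjusted p of 0.0836. In Σ1278b 2μ-*MSS11*, *STE12* was the single pathway gene called (-0.65, adjusted p = 0.0279), where 5.22% of all probe sets were called in either direction.

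Of 19 other genes of mating, 12 were called higher and 2 lower in the S288c wild type, with a median of 1.16, against 31.8% and 28.1% of all tested probe sets. Among these 19, *ASG7* and *BAR1* are also a-specific. *PRM4* stood at 12.95 on both S288c wild-type arrays against 6.77 and 6.83 in the Σ1278b wild type, a difference of 6.15 (adjusted p = 1.12e-06), and *KAR5*, needed for nuclear fusion, was higher by 4.88. With 2μ-*MSS11* in S288c 8 of the 19 were called lower and none higher, against 9.6% and 7.26% of all tested probe sets. Among the 8 were *PRM8* (-2.85), *KAR5* (-2.31) and *PRM4* (-2.01). With a variance for each condition none of the 20 pathway genes and 1 of these 19 was called lower, against 0.109% of all tested probe sets. In Σ1278b 2μ-*MSS11*, *PRM10* was higher by 1.90 and *GIC2*, an effector of Cdc42, by 0.47 (adjusted p = 0.037 and 0.0192), the 2 genes of this list that were called there. Of 10 haploid-specific genes, 8 were called higher and 1, *HO*, lower in the S288c wild type, with the same shares of all tested probe sets, 31.8% and 28.1%, beside them. The 8 differed by 0.47 to 1.98, and *HO* by -4.10.

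**Figure D4:**
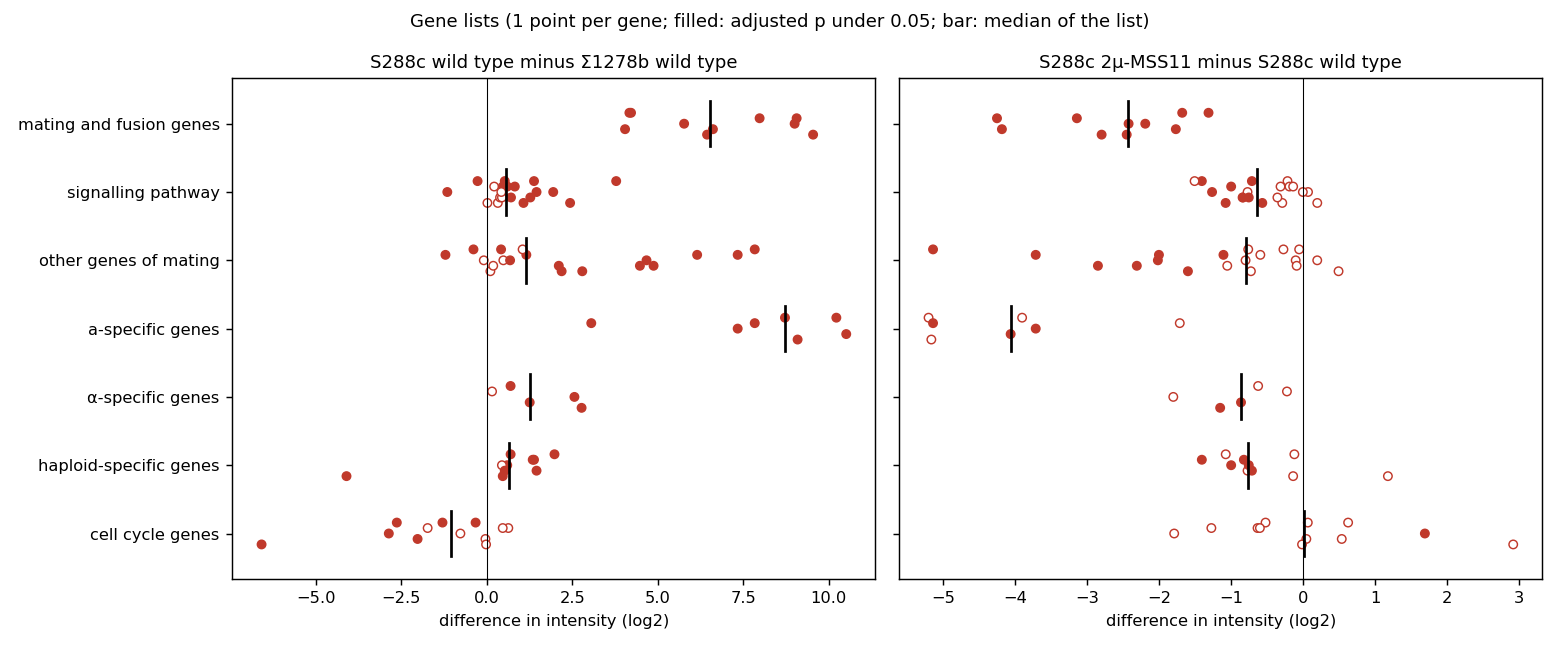
Differences in log2 intensity of the genes of 7 lists, between the wild types of S288c and Σ1278b (left) and between 2μ-*MSS11* and wild type in S288c (right). Each point is a gene, filled where the adjusted p was under 0.05, and bars are medians: 6.53 and -2.44 for the mating and fusion genes, 0.56 and -0.64 for the signalling pathway.

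Other probe sets followed the members closely. Among 2456 tested probe sets whose condition means ranged over at least 2 on the log2 scale, the 6 non-members with the highest Pearson correlation to the mean member profile over the 8 conditions were YNR068C, *BSC5*, *MFA1*, *ARR2*, YOR019W and *RRT15* (0.992 to 0.998). *BSC5* and YNR068C, neighbouring genes that share the synonym *BUL3* in the RefSeq annotation of S288c, stood at 10.39 and 12.66 in the mean of the S288c wild type, at 7.28 and 10.58 with 2μ-*MSS11*, and at 2.07 to 2.71 and 7.35 to 7.92 in Σ1278b. *ARR2* and *RRT15* stood at 5.66 and 5.28 in the S288c wild type, at 4.08 and 3.82 with 2μ-*MSS11*, and at 1.96 to 2.14 in Σ1278b.

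The median differences of the genes beside the members on the chromosomes did not follow those of the members, although some of these genes had the same directions. Of 18 adjacent protein-coding genes with a single probe set, taken from the order of genes in RefSeq and chosen after the data were seen, 5 were called lower and 1 higher with 2μ-*MSS11* in S288c, against 9.6% and 7.26% of all tested probe sets, with a median of 0.07. Between the wild types 4 of the 18 were called higher in S288c and 7 lower, against 31.8% and 28.1% of all tested probe sets, with a median of -0.50. The 4 that were higher, *CST6*, *PRP39*, *PEP5* and *PEX34*, were all among the 5 called lower with 2μ-*MSS11*, and so had the directions of the members. The largest differences with 2μ-*MSS11* among the 5 were those of *PEX34* beside *KAR4* (-1.25, adjusted p = 0.0437) and *PRP39*, a splicing factor gene beside *PRM6* (-1.24, adjusted p = 0.00163). Both were higher in the S288c than in the Σ1278b wild type, by 2.0 and 2.18. *HBN1* beside *FUS1* was lower in the S288c wild type, at -5.05 (adjusted p = 0.00059).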

How the data were processed

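Arrays were scanned and read out by the authors (GCOS 1.4), background-corrected and normalized, and deposited as 1 linear intensity per probe set and array. For this step RMA is named in the methods and GCRMA in the submitters' processing notes, without a version, and whether the 3 sets of arrays were normalized together is not given in the sources used here. Probe sets were named from the annotation table of the platform. Of 10928 probe sets, 166 controls, 1746 for another organism, 3517 without a gene symbol and 1 with several were left out, and 5498 were tested.

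Log2 intensities were fitted with limma 3.58.1 in R 4.3.3, with a mean per condition over 16 arrays, moderated by empirical Bayes, and p-values were adjusted by Benjamini and Hochberg's method over all tested probe sets (threshold 0.05, two-sided). The script was tested on simulated data. The genes named are the 10 members, MSS11 and FLO8, up to 4 genes of each list described and 6 genes of like pattern. HO, CLN1, CLB6, further mating-type markers and pathway genes and the neighbouring genes were named after their values were seen. Members and lists were chosen with earlier results of these data known. Arrays were read as 2 replicates per condition, which limits the precision. Replicate numbers were not used to pair the arrays in the main fit. The deviations of equal numbers correlated above 0.1 in 11 of 28 pairs of conditions, over a range of -0.41 to 0.26. Within the second Σ1278b set the correlations were 0.15, 0.16 and 0.26. Alternatives were the filters, the normalization, the moderation, the controls, a replicate block and each array left out.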

Additional observations from a re-analysis of the deposited data

Results flagged for a closer look

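The response to 2μ-*MSS11* differed between S288c and Σ1278b, by the interaction term in limma, for 9 of the 10 members in the fit on all arrays. In that fit 5.64% of all tested probe sets were called lower. The count of members was 3 with a variance for each condition and 0 on the arrays compared only, where 4 and 0 of the 5498 tested probe sets were called lower. It was 4 with all probe sets except controls tested, a fit whose share is not given here. Without any one of the 2 S288c wild-type, 2 Σ1278b wild-type or 2 Σ1278b 2μ-*MSS11* arrays fewer than 9 members were called. The difference of the responses (S288c minus Σ1278b, log2) was -4.41 for *PRM3*, -4.28 for *FIG1*, -3.37 for *PRM6*, -3.21 for *PRM1* and -3.17 for *FUS2*, with adjusted p from 0.0018 for *FIG1* to 0.0458 for *PRM1* among these 5. It was -2.62 for *FIG2*, -2.21 for *PRM2*, -2.12 for *KAR4* and -1.53 for *AGA1*, with adjusted p from 0.00125 for *PRM2* to 0.0439 for *KAR4*. Both arrays of S288c 2μ-*MSS11* were lower than both wild-type arrays for each of these genes, and none of them was called in Σ1278b. Replicate 2 of S288c 2μ-*MSS11* was lower than replicate 1 for all 10 members, with a median gap (replicate 2 minus replicate 1) of -1.75.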

How the results depend on the processing

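The S288c wild type was above each Σ1278b condition for all 10 members under every alternative run. The count of members called lower in S288c with 2μ-*MSS11* was 10 by limma on all arrays, where 9.6% of all tested probe sets were. It was 3 with a variance for each condition and 0 on the 4 S288c arrays only, where the shares were 0.109% and 0.0%. Fewer members than on all arrays were called with a wild-type array left out. The count was 8 with unnamed and other-organism probe sets included and 10 with a replicate block. The shares of all probe sets in those fits are not given here. For the difference of the responses the count was 9, where 5.64% of all tested probe sets were called lower. It became 3 with a variance for each condition and 0 on the arrays compared only, where 4 and 0 of the 5498 tested probe sets were called lower. It also fell without any one of the wild-type or Σ1278b 2μ-*MSS11* arrays. With all probe sets except controls tested it was 4 and with a replicate block 8, and the shares in those fits are not given here. The cause of these lower counts was not tested.

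In Σ1278b 2μ-*MSS11*, 0 became 5 with wild type b as control (*FIG2* -1.18, *FUS1* -2.07, *AGA1* -0.69 and *KAR4* -1.18 turned their direction) and 2 with all 4 wild-type arrays (*FUS1* -1.03). In *mss11* the counts were 6 and 4. These controls include another set of arrays, whose median is shifted, and the shares of all probe sets called with them are not given here. Of all probe sets 80.0% were called higher and 2.89% lower in wild type b than in the wild type, so the counts include that shift. In each comparison of the *FLO8* and *flo8* arrays with wild type b, 1 member was called with a variance for each condition. Of the 5498 tested probe sets, 135 were called higher and 118 lower in that fit on the arrays titled *FLO8* overexpressed. On those titled *flo8* deleted the counts were 354 and 516. Between the wild-type sets, 5 became 0 with quantile normalization, where 443 of all tested probe sets were called higher and 366 lower. Fewer than 5 were called with some of the arrays left out. *AGA1* turned to -0.39 with quantile normalization and -0.41 with median centring. The replicate block changed no other count by more than 1.5 times. The search for promoter motifs was not run, since no promoter sequence was given. With 2 arrays per condition an exact permutation test cannot reach the threshold.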
